A study of Homo sapiens with 5 samples.

Results

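The genes described here are 10 components of protein quality control in the endoplasmic reticulum (ER) of human cells: HERPUD1, DNAJB9, HSPA5, HSP90B1, PDIA4, DNAJC3, SEL1L, SYVN1, EDEM1 and XBP1. They were found by gene symbol in a table of read counts for 18257 genes, all 10 were present, and all 10 were among the 12234 genes with enough reads to be tested. Cells were HEK293, a human embryonic kidney line, of the strain given as HEK293 T-Rex FLAG:DICER1 FLP-IN, so every library, the mock included, comes from cells that carry a FLAG-tagged DICER1 at an engineered site. At the 18 h time point poly(A) RNA was sequenced from 2 libraries with siRNAs against DICER1 (siRNA 1 and siRNA 2), 2 libraries with siRNAs against DROSHA (siRNA 1 and siRNA 2) and 1 mock library labelled as the control. DICER1 is the cytoplasmic nuclease that makes mature microRNAs and DROSHA the nuclear nuclease that acts before it. The knockdowns ask how binding by Dicer bears on gene regulation, with the DROSHA and mock transfections as controls.

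The ER folds membrane and secreted proteins. HSPA5 (BiP) holds unfolded chains with the help of J-domain partners such as DNAJB9 and DNAJC3, HSP90B1 and disulfide isomerases such as PDIA4 act on later folding steps, and chains that fail are marked by lectins such as EDEM1, moved out through a membrane complex built around the ubiquitin ligase SYVN1 with SEL1L and HERPUD1, and degraded by the proteasome, a route called ER-associated degradation (ERAD). When unfolded chains build up, the sensors ATF6, IRE1 (ERN1) and PERK (EIF2AK3) start the unfolded protein response. Cleaved ATF6 and spliced XBP1 then raise transcription of chaperone and ERAD genes through short promoter elements, and PERK acts through the transcription factor ATF4.

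The promoters of 5 of the genes are printed to show exact matches to the ER stress element (ERSE), the best-known site of ATF6 and XBP1 action. Copies with a differing base were not searched for, so a window without a match may still hold such an element. The windows are RefSeq promoters on GRCh38.p14, 250 bases before to 50 bases after an annotated start, in transcript orientation, and were found for all 10 genes. Capitals mark exact matches to ERSE, which is CCAAT and CCACG with 9 bases between them, or to ERSE-II, which is ATTGG and CCACG with 1 base between them, both searched on both strands. HERPUD1 is at chr16:56931892-56932191 on the plus strand, HSPA5 at chr9:125241294-125241593 on the minus strand, HSP90B1 at chr12:103930160-103930459 on the plus strand, XBP1 at chr22:28800520-28800819 on the minus strand and DNAJB9 at chr7:108569624-108569923 on the plus strand. DNAJB9 is shown as the member with the largest difference from the mock, and its window holds no match.
HERPUD1: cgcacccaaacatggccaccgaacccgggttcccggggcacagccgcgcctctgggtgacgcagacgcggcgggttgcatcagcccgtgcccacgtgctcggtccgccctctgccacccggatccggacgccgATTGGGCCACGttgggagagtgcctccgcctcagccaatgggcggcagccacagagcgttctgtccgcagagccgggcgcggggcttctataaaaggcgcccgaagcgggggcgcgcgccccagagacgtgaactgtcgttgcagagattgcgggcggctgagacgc
HSPA5: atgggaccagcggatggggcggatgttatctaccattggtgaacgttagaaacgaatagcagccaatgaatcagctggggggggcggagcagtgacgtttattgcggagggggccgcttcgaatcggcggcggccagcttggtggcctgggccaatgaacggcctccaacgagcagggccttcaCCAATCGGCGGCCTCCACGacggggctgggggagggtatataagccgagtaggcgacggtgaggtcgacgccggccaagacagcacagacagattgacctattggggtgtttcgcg
HSP90B1: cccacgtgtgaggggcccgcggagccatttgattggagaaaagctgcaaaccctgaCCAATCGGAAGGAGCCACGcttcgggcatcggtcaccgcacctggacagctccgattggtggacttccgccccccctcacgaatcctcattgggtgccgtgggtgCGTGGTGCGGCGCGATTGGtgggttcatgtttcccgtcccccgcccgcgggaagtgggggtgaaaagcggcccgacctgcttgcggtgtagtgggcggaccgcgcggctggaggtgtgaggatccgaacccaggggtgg
XBP1: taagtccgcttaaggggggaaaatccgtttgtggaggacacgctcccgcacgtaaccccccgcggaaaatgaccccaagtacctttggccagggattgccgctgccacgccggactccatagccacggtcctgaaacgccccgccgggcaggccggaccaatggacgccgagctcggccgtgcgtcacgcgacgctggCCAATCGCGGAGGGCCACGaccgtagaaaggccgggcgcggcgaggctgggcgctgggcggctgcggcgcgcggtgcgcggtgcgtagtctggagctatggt
DNAJB9: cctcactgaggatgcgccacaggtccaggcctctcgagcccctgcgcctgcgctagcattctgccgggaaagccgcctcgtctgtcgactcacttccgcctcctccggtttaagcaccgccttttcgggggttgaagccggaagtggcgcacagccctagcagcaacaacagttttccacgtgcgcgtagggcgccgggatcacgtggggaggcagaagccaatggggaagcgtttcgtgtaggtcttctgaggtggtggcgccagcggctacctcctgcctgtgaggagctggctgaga

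HERPUD1 held 1 ERSE-II from base -117 to base -107, counted from the start site. HSPA5 held 1 ERSE from -66 to -48 and XBP1 held 1 from -52 to -34, while HSP90B1 held 2, a forward one from -194 to -176 and one on the reverse strand from -89 to -71. The windows of DNAJB9, PDIA4, DNAJC3, SEL1L, SYVN1 and EDEM1 held neither element as spelled. A further annotated start of XBP1 and of PDIA4 also had no match. Over all 27305 gene symbols with a window, 0.0916% held ERSE and 0.0696% held ERSE-II. No member window held TGACGTGG (UPRE, an XBP1 site), which 0.927% of symbols hold, or TGATGNAAT (CARE, a C/EBP and ATF site), which 1.22% hold. The last bases of UPRE are the reverse complement of CCACG, so the elements can overlap. A match is a run of letters and not a measured binding site.

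**Figure D1:**
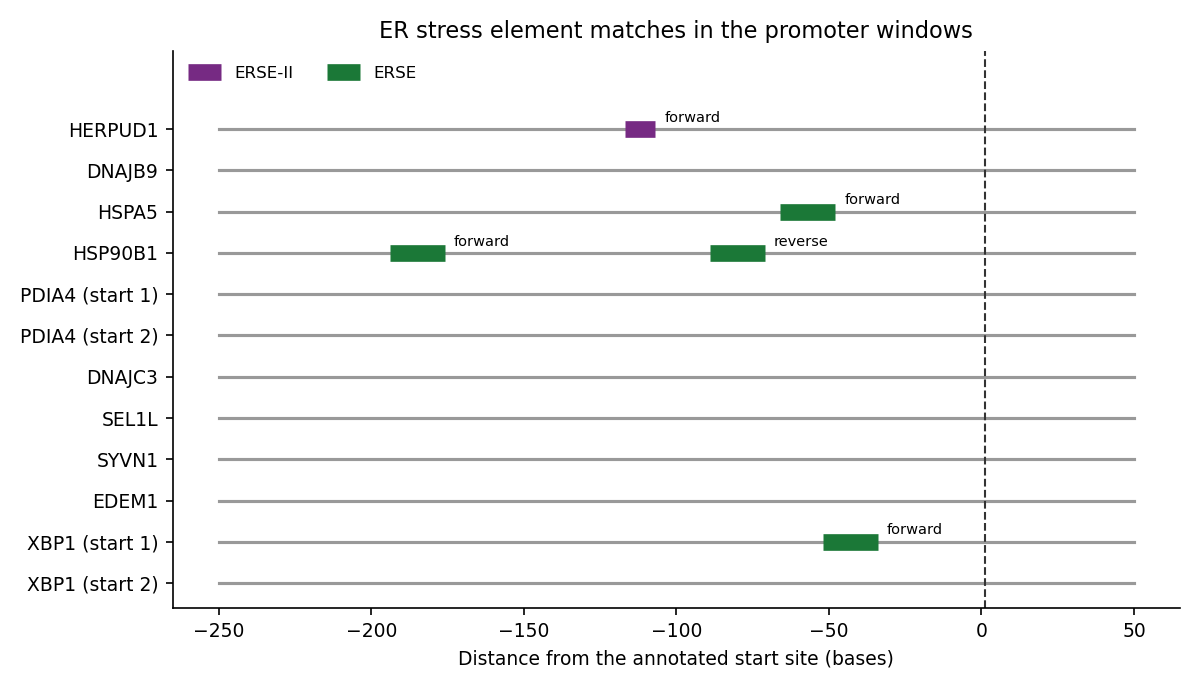
Positions of ERSE and ERSE-II matches in the promoter windows of the 10 genes; the horizontal axis is distance from the annotated start site in bases, each grey line is 1 window, boxes are matches with their strand, and the dashed line is the start. HSP90B1 has 2 matches, HERPUD1, HSPA5 and XBP1 have 1 each in the first window drawn for each gene, and the other 8 windows have none.

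Total counts were between 7620206 and 8736455 per library, and the members together took 0.277% and 0.254% of the counts in the DICER1 siRNA libraries, 0.271% and 0.278% in the DROSHA siRNA libraries and 0.241% in the mock. The targeted mRNAs were reduced to 29.2% of the mock for DICER1 in its siRNA libraries and to 21.7% for DROSHA in its own. These 2 were the genes that edgeR's quasi-likelihood test called, each in its own comparison with the mock (adjusted p = 0.0260 and 0.000882). Of 7 genes picked as HEK293 markers all had reads, VIM between 418.8 and 461.5 CPM (counts scaled to library size with TMM factors) and PAX2 and NEFM below 5 CPM in every library. Of 11 markers of other cell types in the table, 8 had at most 4 counts in any library, among them PTPRC at 0 throughout, and EPCAM, HBB and COL1A1 had reads in all. The labels do not state whether cultures were grown separately, which leaves each p-value as a measure of the spread between these libraries. The mock is a single library that both comparisons with it share, and no library is labelled as a non-targeting siRNA. An unusual mock, an effect of siRNA transfection itself and an effect of knockdown therefore cannot be told apart in those comparisons. Differences from the mock below are differences from that single library. In such bulk libraries fewer cells of a type and less RNA per cell cannot be told apart.

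Per kilobase of exon, levels in the mock spanned a wide range, led by the chaperones. HSP90B1, the ER member of the HSP90 family, stood at 240.7 CPM per kb in the mock, HSPA5 at 120.8, PDIA4 at 102.8 and XBP1 at 36.7. These 4 kept separate places over the 5 libraries, with ranges of 237.3 to 262.6 for HSP90B1, 120.8 to 157.8 for HSPA5, 96.7 to 116.1 for PDIA4 and 36.7 to 46.5 for XBP1. Below them the ERAD genes and J-domain proteins lay close together, HERPUD1 at 13.8 CPM per kb in the mock, DNAJC3 at 12.7, EDEM1 at 12.0, SEL1L at 9.64, SYVN1 at 8.66 and DNAJB9 at 6.75. Within each of the 5 libraries the genes other than DNAJB9 kept this order, although the ranges over all libraries of HERPUD1 and DNAJC3, of DNAJC3 and EDEM1, and of SEL1L and SYVN1 overlapped. DNAJB9 had no fixed place. It was the lowest in the mock, but with 10.5 and 11.6 CPM per kb in the DICER1 libraries and 10.9 and 12.5 in the DROSHA libraries it lay above SEL1L and SYVN1 and below EDEM1 in all 4. SEL1L had 9.95 and 10.6 CPM per kb in the DICER1 libraries and 10.8 and 10.2 in the DROSHA libraries. Exon lengths come from GENCODE 29 on GRCh38 and the counts from hg19, so the per-length levels are approximate. In the mock HSP90B1, HSPA5 and PDIA4 held 79.7% of the member counts.

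**Figure D2:**
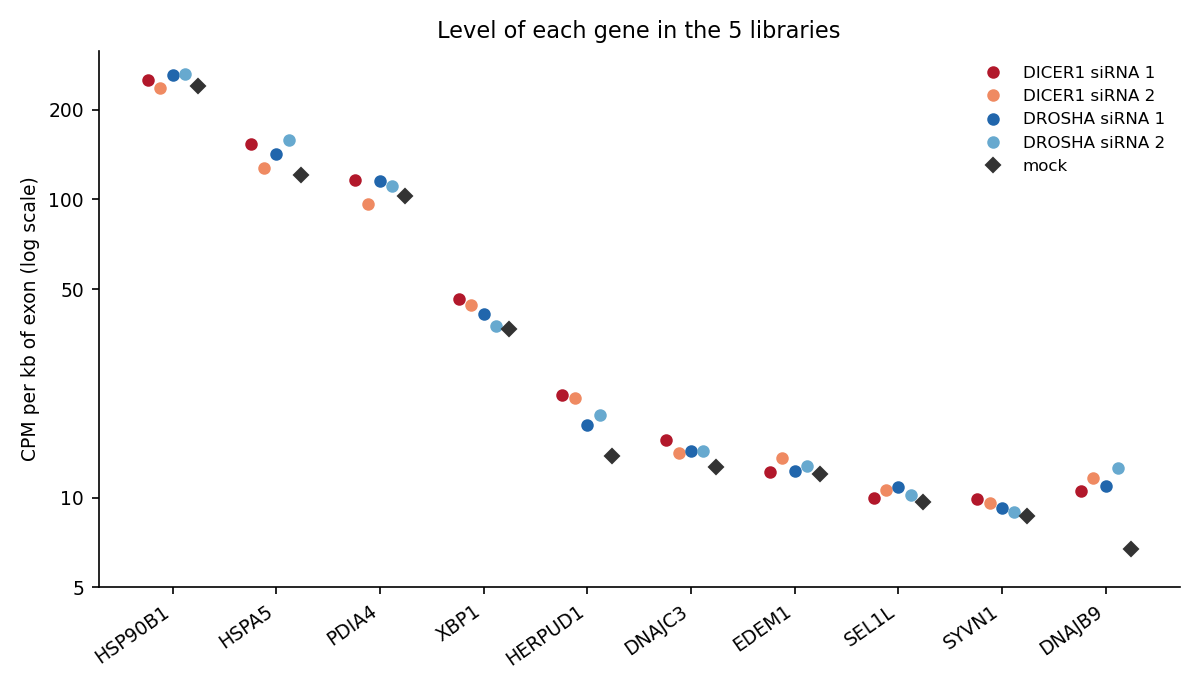
Level of each gene in CPM per kb of exon on a log scale; circles are the 2 DICER1 siRNA and the 2 DROSHA siRNA libraries and the diamond is the mock, with genes ordered by their mock level. HSP90B1 lies above 237 CPM per kb in every library, and DNAJB9 shows the mock at 6.75 below all 4 siRNA libraries.

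The mRNA of HERPUD1, DNAJB9 and XBP1 was higher in both DICER1 libraries than in the mock, by 1.58-fold, 1.64-fold and 1.24-fold, with no member past the test over all genes. Of the abundant folding proteins HSP90B1 and PDIA4 stood at 1.02-fold and 1.04-fold, and HSPA5, above the mock in both DICER1 libraries, at 1.16-fold. HERPUD1 and DNAJB9 were also above the mock in both DROSHA libraries, by 1.32-fold and 1.74-fold, as was HSPA5 by 1.24-fold. In DICER1 against mock 8 of 10 members were higher in both libraries and 0 were lower in both, where 36.7% of all tested genes were higher and 36.4% lower. In DROSHA against mock 10 of 10 were higher in both and 0 lower, where 31.5% of all genes were higher and 32.5% lower. The members were proposed with results of these libraries known, so these counts describe them and lend no independent support.

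By edgeR's quasi-likelihood test with Benjamini-Hochberg adjustment over all 12234 genes, 0 of 10 members were called in DICER1 against mock, where 0.00817% of genes were called, and 0 of 10 in DROSHA against mock, where 0.00817% were called too. At an unadjusted p under 0.05 the same edgeR test had 3 members higher and 0 lower in DICER1 against mock, beside 2.48% of all genes higher and 2.98% lower. For DROSHA against mock it had 3 higher and 0 lower, beside 2.07% of all genes higher and 1.62% lower. The edgeR likelihood ratio test called 1 member in DICER1 against mock, HERPUD1, beside 0.237% of all genes, and 0 in DROSHA against mock, beside 0.0245%. DESeq2 called 0 members in either comparison, beside 0.0409% and 0.00817% of all genes. Over the 10 members the median log2 fold change was 0.20 in DICER1 against mock, with 0.0005 over all genes, and 0.13 in DROSHA against mock, with -0.0049 over all genes.

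**Figure D3:**
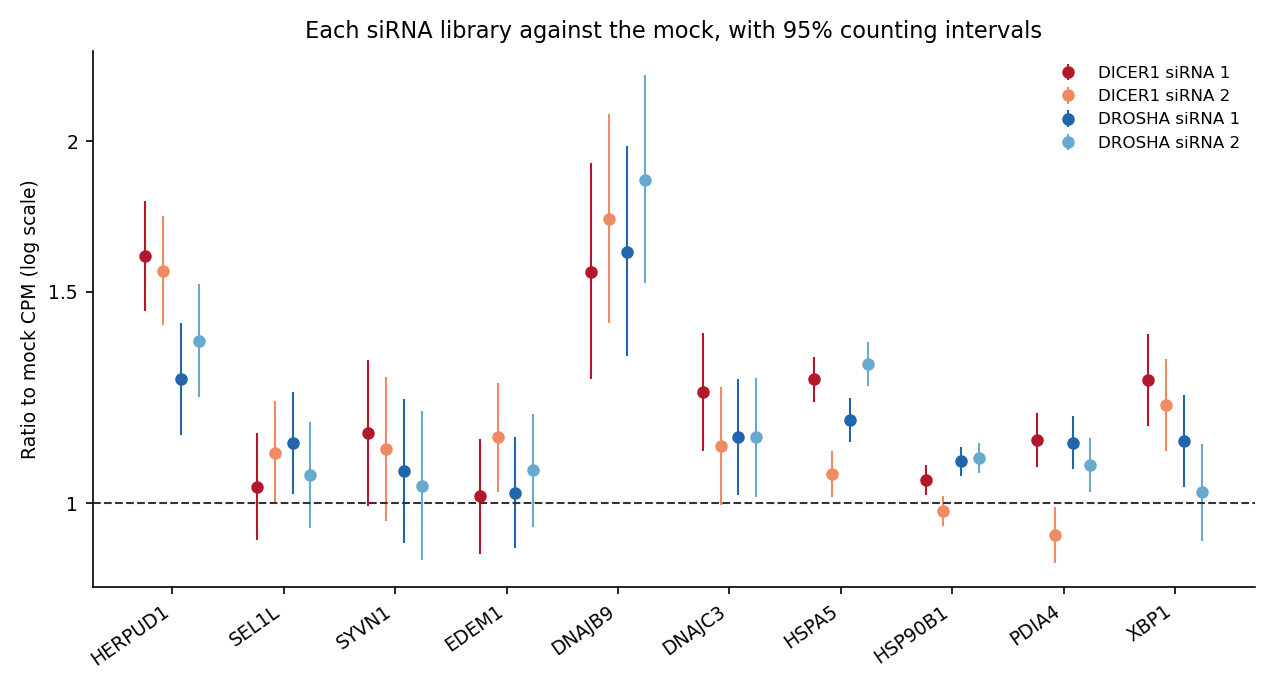
Ratio of each siRNA library to the mock on a log scale, from TMM-scaled CPM; points are libraries, bars are exact 95% intervals that cover counting error of both libraries and nothing else, and the dashed line is the mock. HERPUD1, DNAJB9 and HSPA5 lie above the mock with their intervals in all 4 libraries, while PDIA4 lies above it in DICER1 siRNA 1 and below it in DICER1 siRNA 2.

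HERPUD1 is a membrane protein that binds SYVN1 and helps gather the ERAD complex. It had 114.3 and 111.2 CPM in the DICER1 libraries, 90.4 and 97.3 CPM in the DROSHA libraries and 71.2 CPM in the mock. The 2 DICER1 libraries were the highest, the 2 DROSHA libraries lay between and the mock was the lowest, with no overlap between groups. In DICER1 against mock the log2 fold change was 0.66 ± 0.10 (SE), or 1.58-fold with a 95% interval of 1.33 to 1.88, and 98.0% of all tested genes had a lower one. Its unadjusted p of 0.000483 was rank 6 of all genes and its adjusted p 0.865 in edgeR's quasi-likelihood test, while the edgeR likelihood ratio test gave an adjusted p of 0.00785. Against the mock DROSHA siRNA gave a log2 fold change of 0.40 ± 0.10, or 1.32-fold with an interval of 1.11 to 1.56 (edgeR adjusted p = 0.978).

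SEL1L, the adaptor that carries substrates to the ubiquitin ligase, had 95.2 and 101.5 CPM in the DICER1 libraries, 103.4 and 97.4 CPM in the DROSHA libraries and 92.2 CPM in the mock. All siRNA libraries were above the mock by a small margin, and the 2 knockdowns overlapped. SYVN1 (HRD1), the ligase itself, had 54.5 and 52.8 CPM in the DICER1 libraries, 50.6 and 49.2 CPM in the DROSHA libraries and 47.6 CPM in the mock. Here the DICER1 libraries were the highest. EDEM1, a lectin-like protein that steers glycoproteins into ERAD, had 82.2 and 92.0 CPM in the DICER1 libraries, 82.8 and 86.4 CPM in the DROSHA libraries and 81.1 CPM in the mock. DICER1 siRNA 1 and DROSHA siRNA 1 were close to the mock for this gene. In DICER1 against mock the fold was 1.07 for SEL1L (95% interval 0.899 to 1.27), 1.13 for SYVN1 (0.938 to 1.35) and 1.07 for EDEM1 (0.891 to 1.30). Each of these intervals holds no difference as well as a difference as large as the 1.24-fold of XBP1. For the DROSHA libraries the folds over the mock were 1.09 for SEL1L (0.918 to 1.29), 1.05 for SYVN1 (0.874 to 1.26) and 1.04 for EDEM1 (0.865 to 1.26).

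DNAJB9 (ERdj4) is a J-domain protein of the ER that has been described in hamster cells as bringing BiP to IRE1 and keeping this sensor off. It had 29.8 and 33.0 CPM in the DICER1 libraries, 31.0 and 35.6 CPM in the DROSHA libraries and 19.1 CPM in the mock. The mock was the lowest of the 5 libraries by a clear gap, and the 2 knockdowns overlapped. It was the member with the fewest reads, 228 and 274 counts with DICER1 siRNA, 270 and 279 with DROSHA siRNA and 161 in the mock, and the counting intervals of all 4 ratios to the mock lay above 1, with a lowest bound of 1.27. The log2 fold change was 0.71 ± 0.16 in DICER1 against mock (1.64-fold, 95% interval 1.26 to 2.14, edgeR adjusted p = 0.865). With DROSHA siRNA it was 0.80 ± 0.16 (1.74-fold, 95% interval 1.33 to 2.26, edgeR adjusted p = 0.978), the tenth smallest unadjusted p of all genes, 0.00179. Without DROSHA siRNA 1 the log2 fold change was 0.89, from 1 DROSHA library against 1 mock library.

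DNAJC3 (P58IPK), a J-domain protein that assists BiP and can restrain PERK, had 87.6 and 78.9 CPM in the DICER1 libraries, 80.4 and 80.3 CPM in the DROSHA libraries and 70.8 CPM in the mock. All 4 siRNA libraries were above the mock and the knockdowns overlapped. Its fold was 1.18 in DICER1 against mock (95% interval 0.978 to 1.41) and 1.14 in DROSHA against mock (0.944 to 1.36). HSPA5 (BiP), the central ER chaperone, had 598.95 and 499.7 CPM in the DICER1 libraries, 553.6 and 616.7 CPM in the DROSHA libraries and 472.2 CPM in the mock. The mock was the lowest, but the 2 DICER1 libraries stood far apart. DICER1 siRNA 1 was at 1.27 of the mock with a counting interval of 1.22 to 1.32 and DICER1 siRNA 2 at 1.06 with 1.01 to 1.11, so the siRNAs differed by more than counting error. The log2 fold change in DICER1 against mock was 0.22 with both siRNAs, 0.08 without siRNA 1 and 0.35 without siRNA 2. The fitted fold was 1.16 in DICER1 against mock (95% interval 0.954 to 1.42) and 1.24 in DROSHA against mock (1.02 to 1.51, edgeR unadjusted p = 0.0380, adjusted p = 0.978).

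HSP90B1 (GRP94), the most abundant member, had 1181.0 and 1114.0 CPM in the DICER1 libraries, 1224.8 and 1233.0 CPM in the DROSHA libraries and 1130.0 CPM in the mock. The DICER1 libraries lay on either side of the mock, and the DROSHA libraries were above every other library. Its fold of 1.02 in DICER1 against mock had the narrowest interval of the 10 genes, 0.925 to 1.11, which does not reach the 1.33 at the low end of the HERPUD1 interval. With DROSHA siRNA the fold was 1.09 (0.991 to 1.19). PDIA4 (ERp72), a disulfide isomerase, had 380.4 and 317.0 CPM in the DICER1 libraries, 378.2 and 362.6 CPM in the DROSHA libraries and 336.8 CPM in the mock. DICER1 siRNA 2 was below the mock and the other siRNA libraries above it. Counting intervals of the ratio to the mock were 1.07 to 1.19 for DICER1 siRNA 1 and 0.892 to 0.993 for DICER1 siRNA 2, so the siRNAs were on opposite sides beyond counting error. The fitted fold was 1.04 in DICER1 against mock (0.858 to 1.25) and 1.10 in DROSHA against mock (0.911 to 1.33).

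XBP1, the transcription factor whose mRNA IRE1 splices, had 140.8 and 134.3 CPM in the DICER1 libraries, 125.3 and 113.6 CPM in the DROSHA libraries and 111.2 CPM in the mock. The DICER1 libraries were the highest and DROSHA siRNA 2 was close to the mock. The log2 fold change was 0.31 ± 0.10 in DICER1 against mock (1.24-fold, 95% interval 1.04 to 1.47, edgeR unadjusted p = 0.0230, adjusted p = 0.865) and 0.10 ± 0.10 in DROSHA against mock (1.07-fold, 0.904 to 1.28). Counts per gene do not separate the spliced from the unspliced form, so these values give the amount of XBP1 mRNA and not IRE1 activity.

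Set against the spread between siRNAs, the absolute log2 difference between DICER1 siRNA 1 and 2 had a median of 0.12 over the members and 0.10 over all genes. For DROSHA siRNA 1 and 2 it was 0.07 over the members and 0.14 over all genes. The widest pairs were PDIA4 and HSPA5, both 0.26 higher on the log2 scale in DICER1 siRNA 1 than in DICER1 siRNA 2. DNAJB9 had the widest DROSHA pair, 0.20 lower in siRNA 1. Counting intervals of the ratio to the mock lay above 1 for 7 members in DICER1 siRNA 1 and 5 in DICER1 siRNA 2, where PDIA4 lay below 1. With DROSHA siRNA 1 they lay above 1 for 8 members, with DROSHA siRNA 2 for 6, and below 1 for 0 with either. The share of all genes with such intervals was not computed. These intervals cover counting error only, so with many reads a small difference clears 1.

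**Figure D4:**
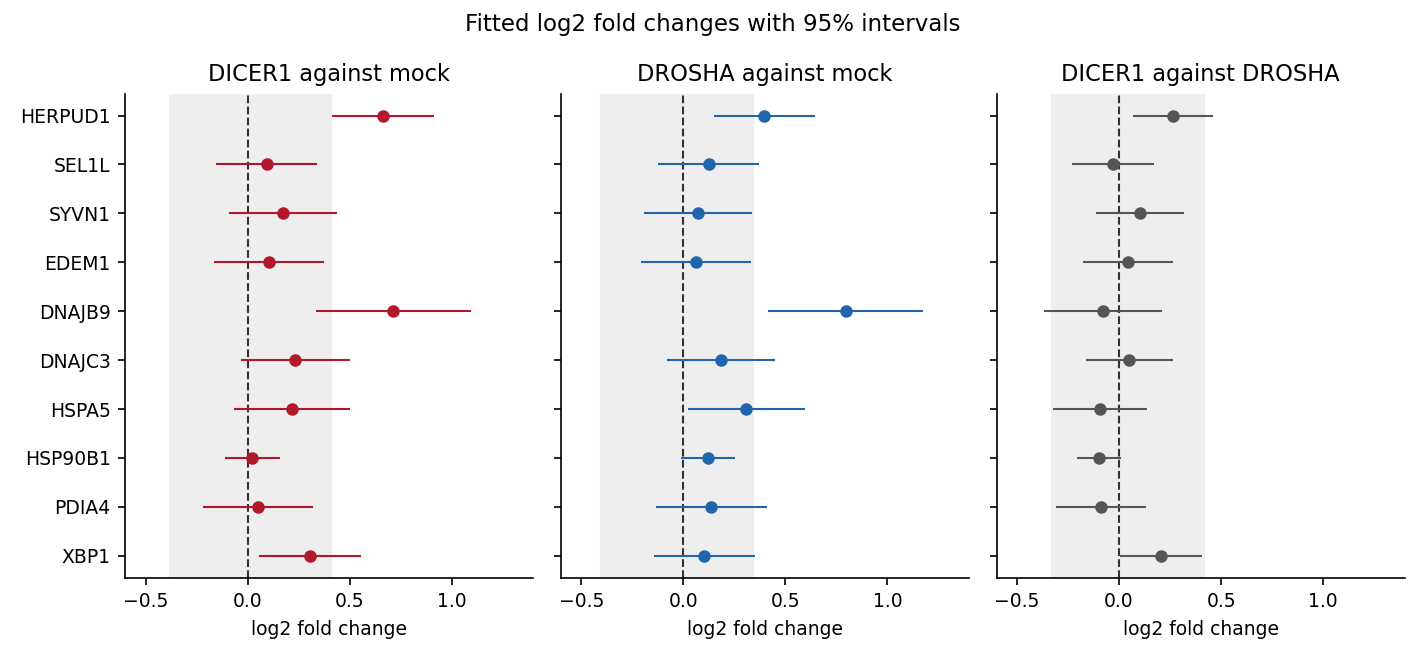
Fitted log2 fold changes of the 10 genes in 3 comparisons; points are edgeR estimates, bars are 95% intervals from the quasi-likelihood fit before adjustment for the number of genes, and the grey band holds the middle of all 12234 tested genes, from the lowest to the highest 5%. HERPUD1 and DNAJB9 lie right of the band in both comparisons with the mock, at 0.66 and 0.71 for DICER1 and 0.40 and 0.80 for DROSHA.

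The direct comparison of the knockdowns leaves the mock out of the contrast and asks whether the DICER1 and DROSHA libraries differ. HERPUD1 and XBP1 were higher in both DICER1 libraries than in both DROSHA libraries, by 1.20-fold and 1.15-fold, as was SYVN1 by 1.07-fold, and HSP90B1 was lower in both, at 0.934 of the DROSHA level. That is 3 of 10 members higher and 1 lower, where 20.9% of all tested genes were higher and 20.0% lower, so the share is near that of all genes. Without DICER1 siRNA 2 the count of members higher was 5. With 1 DICER1 library such a count is easier to reach, and the share of all genes in that setting was not computed. By edgeR's quasi-likelihood test 0 of 10 members were called, where 0.0163% of genes were. At an unadjusted p under 0.05 it had 2 members higher and 0 lower, beside 4.02% of all genes higher and 4.32% lower. The edgeR likelihood ratio test and DESeq2 also called 0 members, beside 1.06% and 0.196% of all genes. For HERPUD1 the log2 difference was 0.27 ± 0.08 (95% interval 0.07 to 0.46, edgeR unadjusted p = 0.0158, adjusted p = 0.523). For XBP1 it was 0.20 ± 0.08 (0.0024 to 0.40, edgeR unadjusted p = 0.0480, adjusted p = 0.593). DNAJB9 differed by -0.08 ± 0.12 (-0.37 to 0.21), an interval that allows the DICER1 level to be anywhere from 0.774 to 1.16 of the DROSHA level. The median over the members was 0.0066, with 0.0042 over all genes.

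The other genes of ER protein folding had medians near that of all genes. Of 29 further ER chaperones and folding enzymes, all tested, 9 were higher and 14 lower in both DICER1 libraries than in the mock. Of all tested genes 36.7% were higher and 36.4% lower. The median log2 fold change of the list was -0.04. The DROSHA comparison had 10 higher and 8 lower, beside 31.5% and 32.5% of all genes, with a median of 0.01. The DICER1 median was -0.0093 without DICER1 siRNA 2, and the DROSHA median -0.0052 without DROSHA siRNA 1. The edgeR quasi-likelihood test called 0 of them in either comparison. At an unadjusted p under 0.05 this test had 0 higher and 2 lower in DICER1 against mock, beside 2.48% and 2.98% of all genes. In DROSHA against mock it had 0, beside 2.07% of all genes higher and 1.62% lower. The likelihood ratio test and DESeq2 called 0 in both. TMX3, a membrane-bound thiol oxidoreductase, stood at a log2 fold change of -0.32 ± 0.11 in DICER1 against mock. ERO1LB and ERO1L, the oxidases that recharge disulfide isomerases, stood at -0.35 ± 0.14 and -0.39 ± 0.17, and CRELD2, an ER stress-inducible gene, at 0.23 ± 0.12. For the DROSHA libraries P4HB, the archetypal disulfide isomerase, stood at 0.14 ± 0.06, the lectin chaperone CANX at -0.26 ± 0.12, FKBP14 at 0.21 ± 0.13 and CRELD2 at 0.19 ± 0.12. Their adjusted p in edgeR was not under 0.05 for any.

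Of 32 further ERAD genes 31 were in the table and 30 were tested, RNF5 having too few reads. In DICER1 against mock 11 were higher and 12 lower in both libraries, beside 36.7% and 36.4% of all genes, with a median of -0.02. In DROSHA against mock 15 were higher and 8 lower, beside 31.5% and 32.5%, with a median of 0.04. Without DICER1 siRNA 2 the DICER1 median was 0.024, on the other side of 0. In edgeR's quasi-likelihood test 0 were called in both comparisons. At an unadjusted p under 0.05 this test had 1 higher and 1 lower for DICER1, beside 2.48% and 2.98% of all genes. For DROSHA it had 1 higher and 0 lower, beside 2.07% and 1.62%. DESeq2 called 0 in both, and the edgeR likelihood ratio test called 1 in DICER1 against mock, DERL3, beside 0.237% of all genes. DERL3 belongs to the derlin family of ERAD channel proteins. DERL3 had 48.0 and 54.5 CPM in the DICER1 libraries, 38.7 and 39.8 CPM in the DROSHA libraries and 32.2 CPM in the mock. As for HERPUD1, the DICER1 libraries were the highest and the mock the lowest. The log2 fold change was 0.67 ± 0.13 in DICER1 against mock (adjusted p = 0.865 in edgeR's quasi-likelihood test and 0.0326 in its likelihood ratio test) and 0.28 ± 0.13 in DROSHA against mock. FAM8A1, a cofactor of SYVN1, stood at -0.40 ± 0.09 in DICER1 against mock, the ubiquitin-conjugating enzyme UBE2G2 at -0.48 ± 0.22 and FAF2, which recruits the VCP segregase, at -0.19 ± 0.09. In DROSHA against mock TMUB1, a ubiquitin-like membrane protein, stood at 0.25 ± 0.10, AUP1, an ERAD adaptor, at 0.18 ± 0.09 and the deglycosylating enzyme NGLY1 at -0.23 ± 0.12.

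Of 20 translocon and signal peptidase genes, through which chains enter the ER, 8 were higher and 8 lower in both DICER1 libraries. Of all tested genes 36.7% were higher and 36.4% lower. The median log2 fold change of the list was -0.02. With DROSHA siRNA 6 were higher and 4 lower, beside 31.5% and 32.5% of all genes, with a median of 0.04. Both medians turned sign with a library left out, to 0.030 for DICER1 without DICER1 siRNA 2 and to -0.0036 for DROSHA without DROSHA siRNA 2. The smallest p in DICER1 against mock were those of SSR1 at -0.33 ± 0.16, SEC61A2 at -0.25 ± 0.13, SRP68 at -0.10 ± 0.08 and SEC11A at 0.13 ± 0.10. For DROSHA they were those of SRP68 at -0.19 ± 0.08, SRPR at 0.41 ± 0.17, SEC61A1 at 0.14 ± 0.08 and SSR2 at 0.12 ± 0.08. The sensors and their processing proteases had 7 tested genes of 8, ATF6B having too few reads. In DICER1 against mock 2 were higher and 1 lower, beside 36.7% and 36.4% of all genes, with a median of 0.01. In DROSHA against mock 4 were higher and 2 lower, beside 31.5% and 32.5%, with a median of 0.11. That median was 0.055 without DROSHA siRNA 1 and 0.054 without DROSHA siRNA 2, and the DICER1 median was 0.019 without DICER1 siRNA 1 and 0.018 without DICER1 siRNA 2. MBTPS2, the protease that makes the last cut in ATF6, stood at -0.21 ± 0.09 in DICER1 against mock and EIF2AK3 (PERK) at 0.28 ± 0.20, with CREB3L2 at 0.11 ± 0.13 and ATF6 at 0.04 ± 0.12. With DROSHA siRNA EIF2AK3 stood at 0.25 ± 0.20 and ATF6 and CREB3L2 at 0.15 each. ERN1 (IRE1), with 8.12 and 7.70 CPM in the DICER1 libraries, 5.97 and 5.48 CPM in the DROSHA libraries and 7.85 CPM in the mock, stood at 0.01 ± 0.21 in DICER1 against mock and at -0.45 ± 0.21 in DROSHA against mock. The edgeR quasi-likelihood test, the likelihood ratio test and DESeq2 called 0 genes of both lists in both comparisons. At an unadjusted p under 0.05 the quasi-likelihood test had 0 of either list in DICER1 against mock and 1, SRP68, in DROSHA against mock. Of all genes 2.48% were higher and 2.98% lower for DICER1, and 2.07% higher and 1.62% lower for DROSHA.

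The list named the PERK and ATF4 branch had the highest median of the lists in both comparisons with the mock. Its name describes the choice of genes, and PERK activity was not measured. Of the 12 genes in the list 11 were higher and 1 lower in both DICER1 libraries, beside 36.7% and 36.4% of all tested genes. Their median log2 fold change was 0.43. In both DROSHA libraries 8 were higher and 0 lower, beside 31.5% and 32.5% of all tested genes, and the median was 0.26. The edgeR quasi-likelihood test called 0 in both comparisons. At an unadjusted p under 0.05 this test had 8 higher and 0 lower for DICER1, beside 2.48% and 2.98% of all genes. For DROSHA it had 3 higher and 0 lower, beside 2.07% and 1.62%. The edgeR likelihood ratio test called 2 in DICER1 against mock, SESN2 and DDIT4, beside 0.237% of all genes. It called 0 in DROSHA against mock, and DESeq2 called 0. SESN2, a stress-induced inhibitor of mTORC1, stood at 0.67 ± 0.12 in DICER1 against mock, DDIT4, another such inhibitor, at 0.82 ± 0.15, the transcription factor ATF3 at 0.45 ± 0.11 and the pseudokinase TRIB3 at 0.41 ± 0.11. With DROSHA siRNA ATF3 stood at 0.32 ± 0.11, PPP1R15A, the phosphatase subunit that restores translation, at 0.34 ± 0.11, TRIB3 at 0.27 ± 0.11 and the lipoprotein receptor VLDLR at 0.37 ± 0.16. These genes were listed with results of these libraries known. Without DROSHA siRNA 1 the DROSHA median was 0.14.

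**Figure D5:**
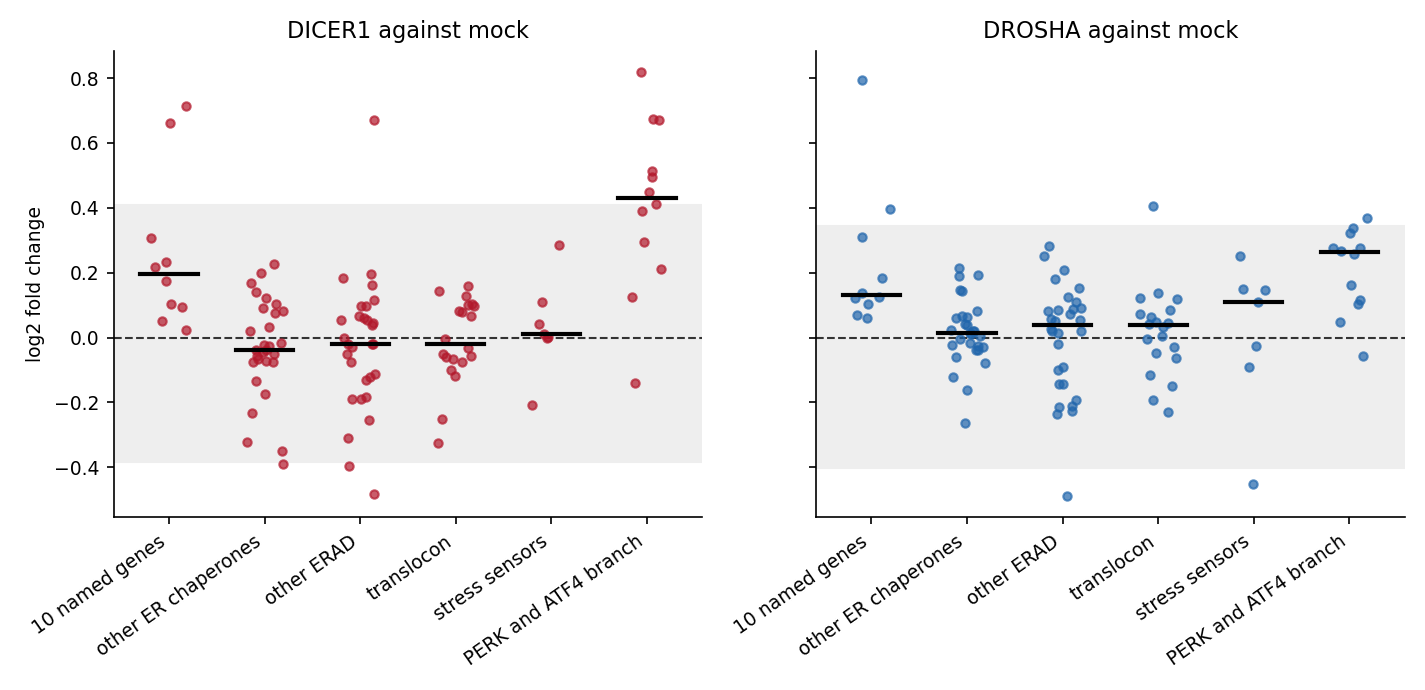
Log2 fold changes of single genes by list in DICER1 against mock (left) and DROSHA against mock (right); points are tested genes, black bars are medians and the grey band holds the middle of all tested genes, from the lowest to the highest 5%. The medians of the other ER chaperones and other ERAD genes lie near 0 (-0.04 and -0.02 for DICER1), those of the PERK and ATF4 branch at 0.43 and 0.26.

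Genes outside the 10 whose promoter window holds ERSE or ERSE-II were grouped after the data had been seen. There were 40 such gene symbols, of which 25 were tested. Over these 25 the median log2 fold change was 0.03 in DICER1 against mock and 0.05 in DROSHA against mock. For DICER1 10 were higher and 8 lower in both libraries, beside 36.7% and 36.4% of all tested genes. For DROSHA 13 were higher and 3 lower, beside 31.5% and 32.5%. The edgeR quasi-likelihood test called 0 of them in both comparisons. Among the other ER chaperones and folding enzymes 8 held an exact match, CALR, CANX, PDIA6, HYOU1, SDF2L1, CRELD2, ERO1LB and SERP1. Of the members that hold one, HERPUD1 stood at 0.66, XBP1 at 0.31, HSPA5 at 0.22 and HSP90B1 at 0.02 on the log2 scale in DICER1 against mock. DNAJB9, with no match in its window, stood at 0.71. A match and a level are set side by side here, and any link between them was not tested.

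The genes whose pattern over the 5 libraries was most like that of a member were found by the root mean square difference of centred log2 CPM, over the 9670 genes that averaged 10 CPM or more. For HERPUD1 these were ORAI1, CDH24 and COQ2, at 0.06 each, for a gene whose own spread over the libraries was 0.24. For DNAJB9 they were PLA2G6 and MINK1 at 0.10 and SMPD1 at 0.11, with an own spread of 0.31. For HSPA5 they were MACROD1 and RRAGD at 0.03 and TECPR2 at 0.04, with an own spread of 0.15. For the median of the 10 members they were UFM1, DPAGT1 and HTT at 0.02 each, with a spread of 0.08. None of these 12 genes is in the ER lists described above.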

How the data were processed

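The authors deposited raw counts per gene symbol as whole numbers, with no normalization, for 18257 genes in 5 libraries, and 0 columns were left unused. The submitters' processing notes name CASAVA 1.8.2, STAR, HTSeq, edgeR and build hg19, with no role for each. The strand setting used in counting is not stated, which means overlapping and antisense genes may share reads. A gene was tested where 2 or more libraries reached 1 CPM (12234 genes). All 5 libraries entered 1 model with a term for group, fitted by edgeR 4.0.16 (R 4.3.3) with TMM scaling and its quasi-likelihood test, and p-values were adjusted over all genes by Benjamini-Hochberg with a threshold of 0.05. Only the siRNA pairs inform the spread, through 2 residual degrees of freedom, and that of the mock is taken to be the same. SE is the absolute log2 fold change divided by the root of F. Alternatives were DESeq2 1.42.0, the likelihood ratio test, other scalings and filters, and single libraries left out. The fit was tested on simulated data in which each gene had the spread usual for its level, alike in all libraries. Of genes simulated with a 1.5-fold change it called 31.3% in DICER1 against mock and 28.4% in DROSHA against mock. In DICER1 against DROSHA it called 64.2%. A difference of that size can thus go uncalled. The simulation left out gene-specific spread and any difference in noise between the siRNA pairs, so these rates may not hold for the libraries. Between both siRNAs of a target, counts differed beyond sampling noise, so no library was treated as a duplicate. Chi-square per degree of freedom was 2.73 for the DICER1 pair and 8.00 for the DROSHA pair. Both pairs enter the same fit, so p-values in DICER1 against mock also rest on the DROSHA pair. Members and lists were chosen with earlier results of these data known. Named genes were the members, and of each other list up to 4 genes with the smallest p in each comparison with the mock. Genes were grouped by promoter motif after the data had been seen. RefSeq windows on GRCh38.p14 were used for sequence only, and no coordinates were converted. Counting intervals are exact and cover counting error only.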

Additional observations from a re-analysis of the deposited data

How the results depend on the processing

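With the mock as 1 library, no alternative tests how it varies. Over 30 member results (10 genes in 3 comparisons) and 320 alternative values, 311 kept their direction. Among the fits with all 5 libraries HERPUD1 in DICER1 against mock passed the threshold by the likelihood ratio test, 1 member in place of 0. DNAJB9 in DROSHA against mock without DROSHA siRNA 1 rests on 1 DROSHA library against 1 mock library, so only its effect size is given. The 9 that turned sign were small values with a library left out. With each library left out in turn, DICER1 against mock ranged from -0.023 to 0.066 for HSP90B1 and from -0.090 to 0.178 for PDIA4, both below 0 without DICER1 siRNA 1. DICER1 against DROSHA ranged from -0.177 to 0.018 for DNAJB9 (above 0 without DROSHA siRNA 2), -0.229 to 0.033 for HSPA5 and -0.226 to 0.038 for PDIA4 (both above 0 without DICER1 siRNA 2), -0.027 to 0.124 for DNAJC3 (below 0 without DICER1 siRNA 1), -0.078 to 0.015 for SEL1L (above 0 without DICER1 siRNA 1 and without DROSHA siRNA 1) and -0.042 to 0.1201 for EDEM1 (below 0 without DICER1 siRNA 2). Counts of all called genes moved more: in DICER1 against mock, in place of 1, 3 with no filter, 5 with DESeq2, 29 with the likelihood ratio test and 0 to 5 with a library left out; in DROSHA against mock, in place of 1, 3 with the likelihood ratio test and 1 to 225 with a library left out (225 without DROSHA siRNA 1); in DICER1 against DROSHA, in place of 2, 12 with no filter, 24 with DESeq2, 130 with the likelihood ratio test and 1 to 427 with a library left out (427 without DROSHA siRNA 1). The median over the members with a library left out ranged from 0.15 to 0.25 in DICER1 against mock (0.20 with all libraries). In DROSHA against mock it ranged from 0.11 to 0.17 (0.13 with all libraries). Members higher in every library in DICER1 against DROSHA ranged from 3 to 5 in place of 3, a count that fewer libraries make easier to reach. The cause of these shifts was not tested, except that a library left out leaves fewer samples. It also leaves only the siRNA pair of the other target to inform the spread. The siRNA numbers name different siRNAs and do not pair libraries: same-numbered deviations of DICER1 and DROSHA had a correlation of 0.02 over genes, and with the number as a replicate block 3 genes and 0 members were called in DICER1 against DROSHA, in place of 2 and 0. Depth limits DNAJB9 most, with 161 counts in the mock.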
